A study of Homo sapiens with 12 samples.

Results

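Long single-exon windows are stretches of transcript, at least 1000 bases long and covered by 1 unbroken block, over which RNA bound to an N6-methyladenosine (m6A) antibody was compared with input RNA. They were taken from the authors' deposited tables as every row with 1 block and a length of 1000 bases or more. There were 198 and 262 such windows in the replicate 1 and 2 tables of guide sgMETTL16-1, and 233 and 244 in those of sgMETTL16-2, so 937 of 296568 rows in all. Another 210326 rows were single blocks under 1000 bases, and 85305 rows joined several blocks. No exon annotation was used here, so "single-exon" rests on the single block.

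The cells were NOMO-1, a human acute myeloid leukaemia line. They were infected with lentivirus carrying 1 of 3 guides, sgMETTL16-1 or sgMETTL16-2 against the RNA methyltransferase METTL16, or the negative control sgNS, and all 3 groups were kept under puromycin. Poly(A) RNA was sequenced as 2 input and 2 immunoprecipitated (IP) libraries per guide, 12 libraries in all. The infected cells are described as a selected culture, with no mention of clones, and nothing in the labels says that the replicates were separate cultures. The series compares m6A in METTL16 knockout with control cells.

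The files are 4 tables of comparisons that the authors made, 1 for each knockout guide and replicate number against sgNS, with no value per library. Where 4 values are listed, they follow the order sgMETTL16-1 replicate 1, replicate 2, sgMETTL16-2 replicate 1, replicate 2. Depth is therefore unknown, and the 2 tables of a guide are the only replicate check. The sources used here do not state which sgNS libraries entered a table, so tables of 1 replicate number may share them. A window was called higher or lower when the deposited false discovery rate (FDR) of the difference was under 0.05. It was called enriched when the deposited FDR of IP over input was under 0.05. A positive log2 fold change was read as more m6A relative to input in the knockout, a convention the tables do not state.

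Most m6A in messenger RNA is placed by the METTL3-METTL14 complex at a short motif in which an adenosine is followed by cytosine. It gathers in long internal exons and around the stop codon. Exons of ordinary length near splice junctions carry little of it, because exon junction complexes keep the writer away. METTL16 is a separate enzyme with few well-established sites, chiefly U6 small nuclear RNA and hairpins in the MAT2A messenger RNA, and it reads a longer sequence in a structured context. Long unbroken exons are thus the RNA on which the METTL3-METTL14 mark is densest.

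Short sequences are shown first for those windows whose letters could be read. A promoter table from RefSeq (GRCh38.p14) overlaps 96 of the 937 windows, on 55 genes, so the letters below are fragments at promoters and not whole windows. Each line has 25 bases on the transcript strand, from 5′ to 3′, and the capitals mark a match to GGACT or AGACT, forms of the METTL3-METTL14 motif. CEBPB, HEXIM1, MESDC1, NDOR1 and NFYA are shown because their values differ: CEBPB, MESDC1 and NDOR1 were each called higher in 1 table, NFYA was called lower in 1, and HEXIM1 was called in none. Some fragments come from the promoter of another entry than the named gene. These entries are CEBPB-AS1 for the AGACT of CEBPB, LOC128071545 for MESDC1, LOC122513141 for NDOR1 and OARD1 for NFYA. All fragments shown lie on the plus strand.
CEBPB, chr20:50190841-50190865: gccgcgcacgGGACTgggaagggga
CEBPB, chr20:50192100-50192124: gccggggctgAGACTccggggagcg
HEXIM1, chr17:45148453-45148477: ggggcgcagaGGACTgggagacagc
MESDC1, chr15:81001918-81001942: ccagcagaagGGACTttcctggcag
NDOR1, chr9:137217308-137217332: ctgatcgccaGGACTgcgttctggg
NFYA, chr6:41097997-41098021: tgatatttctGGACTctagccaaga

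Every fragment shown was kept because it holds a motif, and the genes were picked because their values differ. The 6 fragments therefore cannot say whether the motif goes with a change. HEXIM1, an inhibitor of the elongation factor P-TEFb, holds the GGACT in 3 of its 4 windows, and the authors' deposited tables give it log2 fold changes of 0.10, 0.05, 0.27 and 0.04. Of the CEBPB fragments, the called window holds the AGACT but starts downstream of the GGACT, which lies in the 2 windows not called. CEBPB, a myeloid transcription factor, stood in the authors' deposited tables at 0.08 in replicate 2 of sgMETTL16-1, and at 0.50 (FDR = 1.23e-08) and 0.17 in replicates 1 and 2 of sgMETTL16-2. NFYA, a subunit of the CCAAT-binding factor NF-Y, was at -0.19 (FDR = 0.130, not called) with sgMETTL16-1 and at -0.27 (FDR = 0.00200) with sgMETTL16-2 in the replicate 1 tables, as the authors' deposited tables list it. The MESDC1 window was long in replicate 2 of sgMETTL16-2 alone, at 0.62 (FDR = 0.00537) in the authors' deposited table. NDOR1, a flavin-dependent reductase gene, was at 0.31, 0.55 (FDR = 0.0269) and 0.37 in the authors' deposited tables in which it was long, the middle value being the called one.

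In the 16 stretches of 300 bases that lay whole inside a long window, GGACT occurred on the transcript strand in 4, or 25%. Over all 35116 promoters of that length the share was 25.3% on either strand. GGACT, or the form GAACT, or else the form AGACT, or otherwise the form AAACT, occurred in 6 of the 16 (37.5%), against 62.3% and 63.2% of all promoters on the own and the other strand. The METTL16 sequence TACAGAGAA was in none of the 16, and in 0.171% and 0.145% of all promoters. With 16 stretches these shares describe a small promoter sample and say nothing of the windows as a whole.

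The windows lay on 197, 251, 229 and 233 genes in the 4 tables. Median length was 1140, 1193, 1188 and 1215 bases in the same order. Protein-coding genes held 191, 255, 225 and 236 of them, and long non-coding RNA genes 5, 3, 4 and 6. The longest was 2452 bases on the centromere protein gene CENPB in the first table, 2969 bases on KBTBD11 in the second, 2661 bases on CENPB in the third, and 2840 bases on TCHH in the fourth. Among windows matched in all 4 tables, the longest listings were on PPP1R18 (2449 bases), FOXK1 (2335), the uncharacterised LOC100128494 (2296), HPS6 (2286) and SELPLG (2236). PPP1R18 encodes an actin-associated phosphatase regulator, FOXK1 a forkhead repressor, HPS6 a subunit of the lysosome biogenesis complex BLOC-2, and SELPLG the selectin ligand of leukocytes.

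Chromosome 19, rich in genes, held 23, 31, 27 and 22 of the long windows, or 11.6%, 11.8%, 11.6% and 9.02%. The share over all windows was 6.17%, 6.68%, 6.38% and 6.89%. Among all enriched windows it was 9.43%, 10.7%, 10.2% and 11.1%. Among shorter enriched single-block windows it was 9.14%, 9.49%, 8.97% and 9.35%. In the last table the share of the long windows lay below both of these.

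The length of a window was not a stable property of a locus. Merged over the 4 tables, the members made 535 loci on 511 genes, and 285 of these, 53.3%, reached 1000 bases in a single table. Another 143 did so in 2 tables, 67 in 3, and 40 in all 4. Windows of different tables were treated as the same when strand and gene name were equal and the overlap made up at least 0.5 of the bases in each of the windows compared. Of the 198 windows of sgMETTL16-1 in replicate 1, 134 had a partner in replicate 2, and the partner was a long single block in 69 cases, a shorter single block in 39 and a joined window in 26. Of the 64 without a partner, 58 overlapped at least 2 windows of replicate 2 and none overlapped nothing. For the 233 windows of sgMETTL16-2 in replicate 1, the numbers were 186 with a partner and 90 long in both. Each long window thus overlapped at least 1 window of the same gene in every table compared. For those without a partner, how many of their bases were covered was not measured.

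Some genes carried more than 1 long window, next to each other or far apart. There were 23 genes with at least 2 loci, among them MKI67, KMT2D, ANKRD11, SPEN, ZNF469, ZNF646 and the insulin receptor substrate gene IRS2. On MKI67, the proliferation antigen, chr10:128106041-128109157 was long in all 4 tables and chr10:128103704-128105951 in 2. On ANKRD11, a chromatin regulator with a very long exon, chr16:89281169-89284046 and chr16:89279641-89281049 were each long in 2 tables.

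Long windows were mostly true to the label of broad m6A domains. By the authors' deposited tables, shares of 85.9%, 92.0%, 92.3% and 91.0% were enriched, against 8.10%, 11.9%, 10.2% and 12.3% of all windows. Their median fold enrichment of IP over input was 2.11, 2.46, 2.31 and 2.48, against 1.67, 1.74, 1.77 and 1.70 over all windows of the authors' deposited tables. The remaining 14.1%, 8.02%, 7.73% and 9.02% were long but not enriched, and the label does not hold for them. Single-block windows of 750 to 1000 bases were enriched in 71.4%, 77.8%, 72.5% and 78.8% of cases. Their median fold enrichments were 2.14, 2.43, 2.34 and 2.33, above those of the long windows in the replicate 1 tables and below them in the replicate 2 tables. Window length comes from the same IP signal, so these shares are a description with no test.

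**Figure D1:**
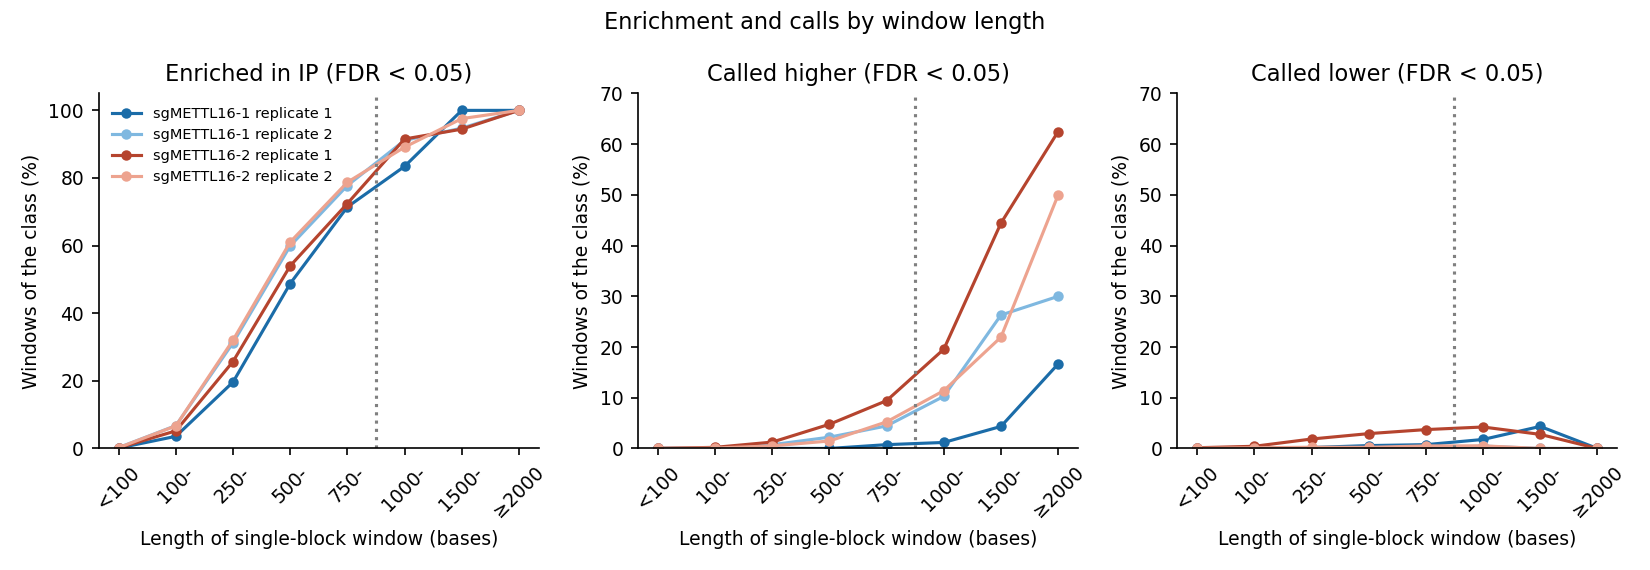
Share of single-block windows (vertical axes, percent) that were enriched in IP, called higher or called lower, by window length in bases (horizontal axes) in each of the 4 deposited tables; each tick names the shortest length of its class and the dotted line marks 1000 bases. Enrichment reaches 100% at 2000 bases or more, the share called higher climbs in each table from the class of 750 bases on, and the share called lower stays under 5%.

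The 5 matched windows with the highest mean fold enrichment were those of MFSD5, ZNF407, CRAMP1, ITPRIPL2 and TMEM229B. MFSD5, a molybdate transporter gene, had fold enrichments of 2.27 and 10.1 with sgMETTL16-1 and 2.07 and 14.9 with sgMETTL16-2, by the authors' deposited tables, high where the window joined 2 blocks. ZNF407, a zinc finger gene, was steadier at 7.05, 5.35, 6.84 and 7.44 in the authors' deposited tables. CRAMP1 was at 3.96, 6.34, 12.2 and 4.13, ITPRIPL2 at 4.83, 5.07, 9.12 and 4.96, and TMEM229B at 3.96, 3.24, 13.7 and 2.96 as the authors' deposited tables list them. A high fold did not always come with an enrichment call: ITPRIPL2 was enriched in none of the 4 tables, and CRAMP1 in replicate 1 of sgMETTL16-2 alone. Not 1 of these 5 windows was called changed in any table. For ZNF407 the authors' deposited tables list log2 fold changes of -0.12, -0.22, -0.45 and -0.33, below 0 throughout, with FDRs between 0.650 and 0.659.

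Relative to their genes, long windows lay near an end or deep inside. Distances were taken to the gene ends of the RefSeq table for GRCh38.p14, and 197, 260, 231 and 242 windows could be placed. Within 1000 bases of the 5′ end lay 18.8%, 17.3%, 25.1% and 21.9%, against 11.3%, 13.8%, 12.4% and 14.4% of all windows. Shorter enriched single-block windows lay there in 7.60%, 9.26%, 9.34% and 9.75% of cases. Among all enriched windows, long and joined ones included, the share was 14.3%, 15.9%, 17.0% and 17.2%, nearer to that of the long windows. Within 1000 bases of the 3′ end lay 37.6%, 35.8%, 32.9% and 38.8% of the long windows, against 25.9%, 24.4%, 25.9% and 24.9% of all and 41.4%, 38.9%, 39.0% and 37.3% of the shorter enriched ones. Distance was taken from the nearest edge of the window, so length itself enters these shares, and 12, 22, 24 and 25 of them covered at least 50% of their gene. Between 49.6% and 54.2% were near neither end.

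**Figure D2:**
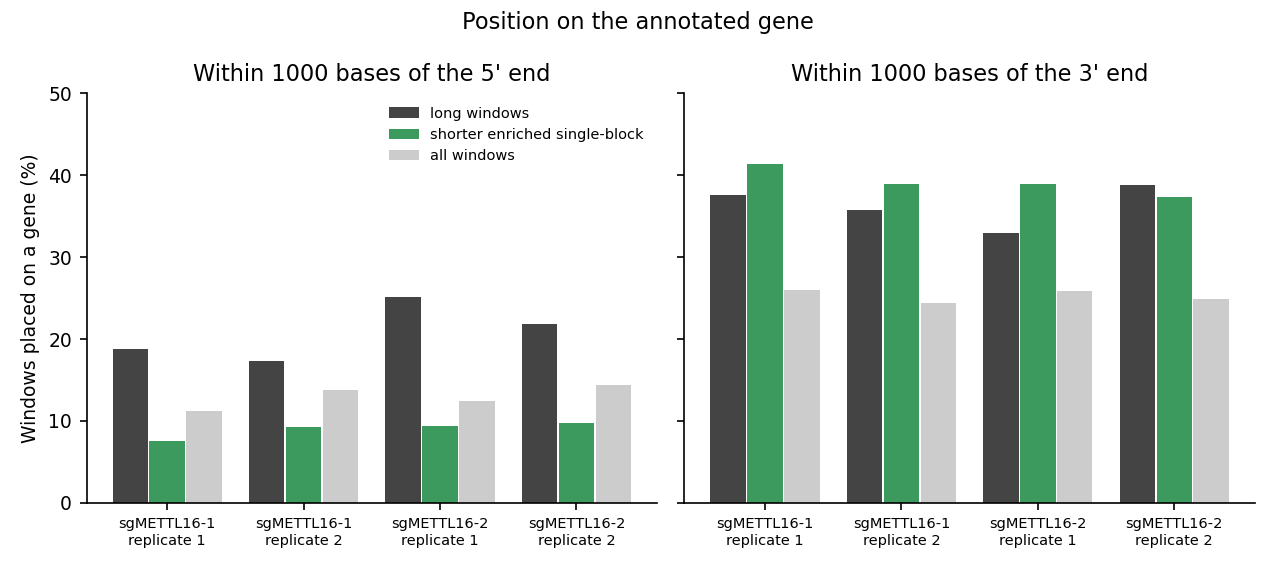
Share of windows (vertical axes, percent of windows placed on a gene) within 1000 bases of the annotated 5′ end (left) and 3′ end (right), for long windows, shorter enriched single-block windows and all windows in each deposited table. At the 5′ end long windows stand highest of the sets shown in all 4 tables, at 17.3% to 25.1%. At the 3′ end they lie above all windows but not apart from the shorter enriched ones. Enriched windows of every length and block number are not drawn.

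In 3 of the 4 comparisons with sgNS, long windows had mostly positive log2 fold changes. The median was -0.00 in replicate 1 of sgMETTL16-1, where 49.0% lay above 0 in the authors' deposited table. In replicate 2 of that guide it was 0.20 with 80.2% above 0, and for sgMETTL16-2 it was 0.27 with 78.5% and 0.22 with 84.0% in the authors' deposited tables. The 2 tables of sgMETTL16-1 thus differ in the middle of their distribution by more than those of sgMETTL16-2.

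Enriched windows of every length were offset too. The median over every window was 0.00 in each table, and over enriched windows it was -0.04, 0.13, 0.13 and 0.14 in the authors' deposited tables. Measured from the enriched median, the long windows' medians lay 0.03, 0.07, 0.14 and 0.09 higher. Against shorter single-block windows that were enriched too, enriched long windows had medians higher by 0.01, 0.07, 0.13 and 0.10. These differences carry no replicate error of their own. Other enriched windows on the same genes, with median lengths of 390 to 448 bases, had medians of -0.00, 0.17, 0.22 and 0.20 in the authors' deposited tables, close to those of the long windows.

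**Figure D3:**
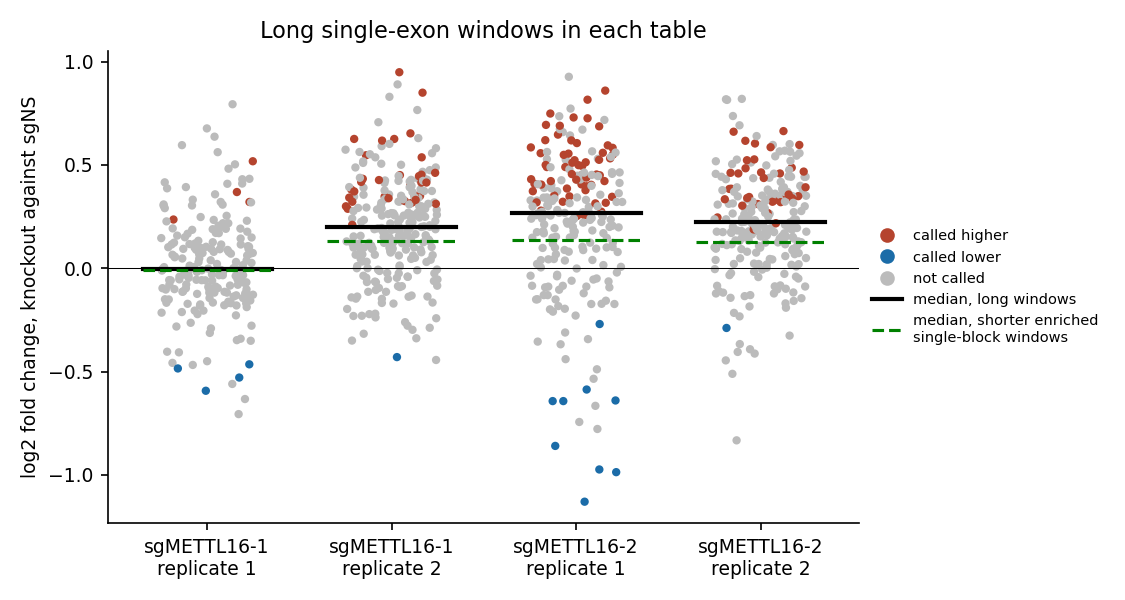
Deposited log2 fold change (vertical axis, knockout against sgNS) of every long window, 1 point each, in the 4 tables, coloured by call. The black bar is the median of the long windows and the dashed green bar that of shorter enriched single-block windows; the black bar stands at 0.20 to 0.27 in 3 tables and at 0 in replicate 1 of sgMETTL16-1.

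Calls followed the same split. In replicate 1 of sgMETTL16-1, 4 long windows were called lower and 4 higher, 2.02% each, where 0.281% of all windows were lower and 0.0743% higher. Replicate 2 had 1 lower and 35 higher (0.382% and 13.4%), where 0.167% of all were lower and 0.583% higher. For sgMETTL16-2, replicate 1 had 9 lower and 58 higher (3.86% and 24.9%) beside 0.965% and 0.875% of all windows. Replicate 2 had 1 lower and 36 higher (0.410% and 14.8%) beside 0.149% and 0.586%. Among shorter enriched single-block windows, 0.327%, 2.49%, 5.25% and 1.98% were higher, so long windows were called higher more often than these in each table. Of the same shorter windows, 1.01%, 0.702%, 3.36% and 0.692% were lower. Long windows were thus called lower more often than these in the replicate 1 tables and less often in the replicate 2 tables. Among all enriched windows, long and joined ones included, 2.79%, 0.766%, 4.38% and 0.676% were lower, more than among long windows in each table. Of the same enriched windows, 0.809%, 4.64%, 7.38% and 4.54% were higher, less than among long windows in each table.

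The counts of higher calls in 3 of the tables depended on the zero point and the sidedness of the p. After each table was shifted by its enriched median, with two-sided p-values, 4, 4, 24 and 4 long windows were higher and 0, 2, 11 and 1 lower. The same shift left 0.068%, 0.12%, 0.202% and 0.0871% of all windows higher and 0.144%, 0.209%, 1.11% and 0.181% lower.

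Precision changes with length as well. A standard error was implied by a window's fold change and deposited p, read as one-sided. Its median was 0.15, 0.17, 0.16 and 0.16 (log2) in long windows, against 0.95, 0.97, 0.95 and 0.91 over all windows that gave one. In replicate 1 of sgMETTL16-2, enriched windows of 500 to 750 bases had a median fold change of 0.16, an implied error of 0.24 and 8.13% higher calls. Those of 1000 to 1500 bases were at 0.25, 0.16 and 21.4%, and those of 1500 to 2000 at 0.33, 0.11 and 47.1%. In the replicate 2 tables the fold change moved less over the same classes, with medians of 0.18, 0.19 and 0.22 for sgMETTL16-1 and 0.17, 0.22 and 0.20 for sgMETTL16-2. Higher calls there rose from 3.72% to 27.8% and from 2.42% to 22.5%. Replicate 1 of sgMETTL16-1 had medians of 0.01, -0.01 and 0.04, with 0%, 1.42% and 4.35% higher. The implied error fell over these classes in all 4 tables, and the part of fold change and precision in the calls was not tested. Called-higher windows had implied errors of 0.07, 0.09, 0.11 and 0.09 and median lengths of 1423, 1219, 1374 and 1408 bases, against errors of 0.16, 0.18, 0.18 and 0.17 in those not called.

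Higher calls by position on the gene differed between tables. In replicate 2 of both guides, windows near the 5′ end alone were higher in 7 of 26 and 9 of 28 cases. Windows near neither end were higher there in 17 of 141 and 14 of 120. Windows near both ends, which also reach the 5′ end, were higher in 1 of 19 and 3 of 25. Those near the 3′ end alone were higher in 10 of 74 and 10 of 69. In replicate 1 of sgMETTL16-1, 1 of 24 near the 5′ end alone, 0 of 13 near both ends, 3 of 61 near the 3′ end alone and 0 of 99 near neither were higher. In replicate 1 of sgMETTL16-2 windows near the 5′ end alone were not higher more often than those near neither, with 7 of 34 against 28 of 121. Median fold changes by position in that table ranged from 0.24 near the 3′ end alone to 0.30 near both ends.

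Replicate tables of a guide lay closer together on long windows than on short ones, as a description with no test. Matched long windows are those long in at least 1 of the 2 tables, and the partner could be shorter or joined. Both listings were long in 69 cases with sgMETTL16-1 and 90 with sgMETTL16-2. The absolute difference between the 2 tables had a median of 0.23 over 214 matched long windows of sgMETTL16-1 and 0.18 over 263 of sgMETTL16-2. Shorter windows, single blocks under 1000 bases in both tables, differed by 0.59 and 0.58, so the 2 sets were not matched by the same rule. Where both listings were enriched, the difference was 0.23 for 188 long and 0.25 for 1344 shorter windows with sgMETTL16-1. For sgMETTL16-2 it was 0.18 for 241 long and 0.24 for 1726 shorter windows. Both listings lay above 0 in 97 of 214 windows and in 195 of 263, and below 0 in 25 and 19.

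**Figure D4:**
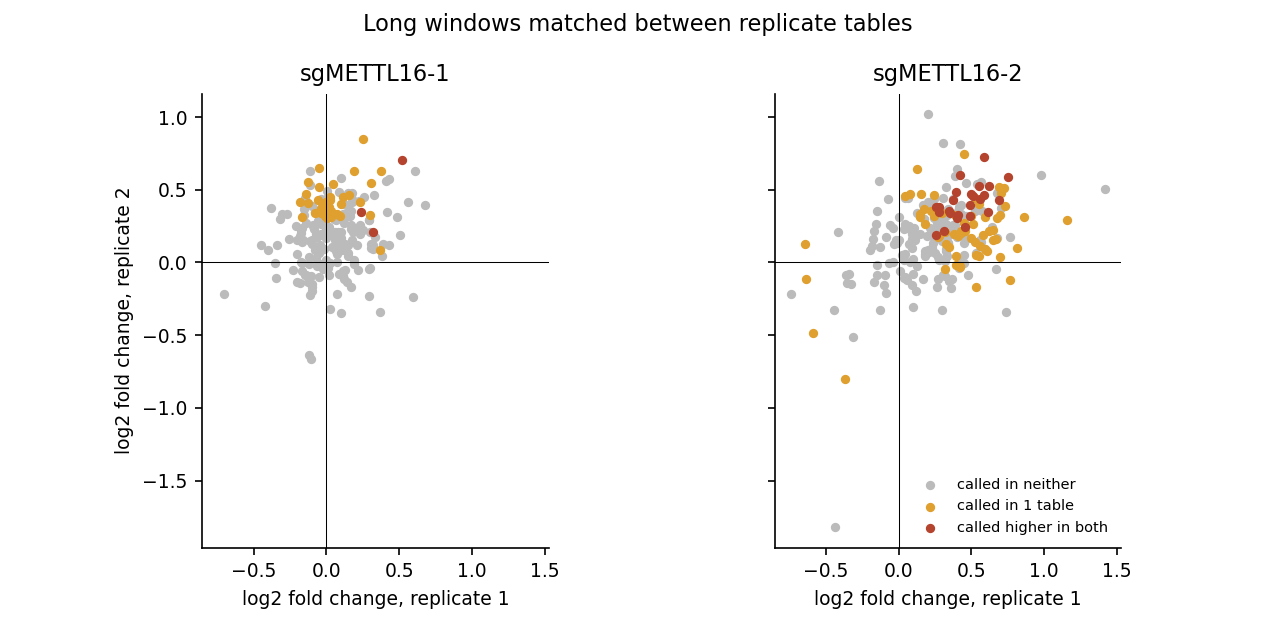
Log2 fold change of each matched window, long in at least 1 table, in the replicate 1 (horizontal axis) and replicate 2 (vertical axis) tables of a guide. There is 1 point per window, with windows called higher in both tables in red. With sgMETTL16-2 195 of 263 points fall above 0 on both axes, and with sgMETTL16-1 97 of 214.

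With sgMETTL16-1, 3 of the 214 matched windows were called higher in both tables, those of IL4R, CEBPA and PTPN7. Of all 20031 matched windows, long ones included, 4 (0.02%) were. With sgMETTL16-2, 25 of 263 were higher in both, 9.51%, beside 0.529% of all matched windows. None was called lower in both tables of either guide, beside 0.0449% and 0.0613% of all matched windows. By the deposited p without adjustment, under 0.05 in both, 1 and 2 windows were lower and 13 and 86 higher. No window was called in opposite directions by the tables of 1 guide.

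IL4R, CEBPA and PTPN7 were also higher in both tables of sgMETTL16-2, which makes them 3 of 239 windows matched in all 4 tables. These 239 were long in at least 1 table, and 35 of them in all 4. Of all 8756 windows matched in all 4 tables, long ones included, 3 (0.0343%) were higher in all 4. This share is therefore no independent background. None of the 239 was lower in all 4, by the deposited FDR or by the unadjusted p, beside another 0.0343%. The window of CEBPA, the single-exon transcription factor gene that drives granulocyte and monocyte differentiation, covered chr19:33301040-33302564 in the first table and reached 1645 bases. Its log2 fold changes were 0.24 and 0.35 with sgMETTL16-1 and 0.49 and 0.32 with sgMETTL16-2, by the authors' deposited tables, with FDRs of 3.39e-05, 2.51e-14, 3.98e-31 and 1.58e-12. It was the 1 window still called in all 4 tables after each was shifted by its enriched median. Of the 3, it was also the 1 that sgMETTL16-1 kept in both tables, where 1 of all 20031 matched windows (0.00499%) was higher. A two-sided p alone likewise left 1 of the 3 in both tables of sgMETTL16-1, beside 0.00998%: IL4R lost its call in replicate 1 and PTPN7 in replicate 2.

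IL4R, the receptor chain for interleukins 4 and 13, had the larger fold changes of the 3, in a window that ended 240 to 270 bases before the gene's 3′ end (chr16:27363189-27364508 in the first table). They were 0.52 (FDR = 0.0257) and 0.70 (FDR = 0.000617) with sgMETTL16-1, and 0.62 (FDR = 0.00107) and 0.53 (FDR = 0.00708) with sgMETTL16-2, by the authors' deposited tables. In replicate 2 of sgMETTL16-1 the window was 810 bases long and so not a member by length. The IL4R window that is a member in that table, chr16:27362349-27363639, was at 0.20 and not called in the authors' deposited table, and its match in replicate 1 was at -0.07, not called, by the authors' deposited table. PTPN7, a tyrosine phosphatase of haematopoietic cells, had a window that ran to the 3′ end of the gene (chr1:202147013-202148117) with 0.32, 0.21, 0.31 and 0.22 in the authors' deposited tables. Its FDRs there were 8.13e-05, 0.0309, 8.32e-05 and 0.0229.

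The 25 windows shared by both tables of sgMETTL16-2 were led by ZBTB4, JUN, IL4R, REXO1, IL17RA, TGFB1, KMT2B, SOX12, DAG1 and SCAF1. ZBTB4, a zinc finger protein that binds methylated DNA, was highest by mean, at 0.75 (FDR = 0.00324) and 0.59 (FDR = 0.0309) in the authors' deposited tables (chr17:7462650-7463874 in replicate 1). JUN, an AP-1 transcription factor with 1 exon, was at 0.58 (FDR = 0.00741) and 0.73 (FDR = 0.00759) in the authors' deposited tables, with the replicate 2 window at 959 bases. The matching sgMETTL16-1 listings were at -0.02 and 0.80 (FDR = 0.00302) in the authors' deposited tables. Those 2 listings overlap each other by too little to be matched, so they are no replicate comparison. The JUN window matched between the tables of sgMETTL16-1 lies further 3′ and was at 0.00 and 0.23, not called, in the authors' deposited tables.

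Of the 10, TGFB1, IL17RA and DAG1 encode a secreted protein or a receptor, as IL4R does. TGFB1, the cytokine TGF-beta 1, had its window at the 5′ end (chr19:41352746-41353933 in replicate 1), with 0.58 (FDR = 2.51e-15) and 0.46 (FDR = 1.20e-10) in the authors' deposited tables of sgMETTL16-2. IL17RA, the interleukin 17 receptor chain, was at 0.55 (FDR = 0.0339) and 0.52 (FDR = 0.0490) in the authors' deposited tables of that guide, near the threshold in both. DAG1, which encodes the adhesion receptor dystroglycan, was at 0.51 (FDR = 0.000661) and 0.46 (FDR = 0.00468) in the authors' deposited tables. For IL17RA the sgMETTL16-1 tables listed 0.19 (not called) and 0.63 (FDR = 0.00776), in the authors' deposited tables.

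KMT2B, a histone H3 lysine 4 methyltransferase, had a window 1824 bases from its 5′ end (chr19:35719827-35721383) at 0.42 (FDR = 0.0468) and 0.60 (FDR = 0.000501) in the authors' deposited tables of sgMETTL16-2. SOX12, a transcription factor gene of the SOX family, was at 0.56 (FDR = 3.89e-06) and 0.44 (FDR = 0.000537) in the authors' deposited tables, 49 and 79 bases from the 5′ end. REXO1, an exonuclease family gene, was at 0.69 (FDR = 4.68e-05) and 0.43 (FDR = 0.00832) in the authors' deposited tables. SCAF1, a protein that binds the tail of RNA polymerase II, was at 0.50 (FDR = 1.32e-06) and 0.47 (FDR = 1.58e-12) in the authors' deposited tables. In replicate 2 the REXO1 listing joined 3 blocks and the SCAF1 listing 5, so these values cover more of the transcript than the long window alone.

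Further windows of the 25, beyond PTPN7 and CEBPA above, lay on IER2, CLDN5, ALKBH5, VEGFA, ADGRA2, RBM15B, CENPB, NUP62, CITED2, H1FX, PPP1R18 and MKI67. Their values in the authors' deposited tables of sgMETTL16-2 ran from 0.19 for MKI67 in replicate 2 to 0.61 for IER2 in replicate 1. VEGFA, the vascular growth factor with a long leader, was at 0.37 and 0.43 in the authors' deposited tables. Of the 25, 11 (44.0%) lay within 1000 bases of the 5′ end of their gene in each table, beside 25.1% and 21.9% of all long windows. The sets differ: CENPB counted in replicate 1 alone, and REXO1 in replicate 2 alone, through its joined listing. Within 1000 bases of the 3′ end lay 7 in each table, beside 32.9% and 38.8% of all long windows. All 25 stayed above 0 after the shift by the enriched median, and 6 were still called in both tables: ADGRA2, CEBPA, CITED2, SCAF1, TGFB1 and VEGFA, beside 0.0566% of all matched windows. With a two-sided p alone, 16 were, beside 0.363%.

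**Figure D5:**
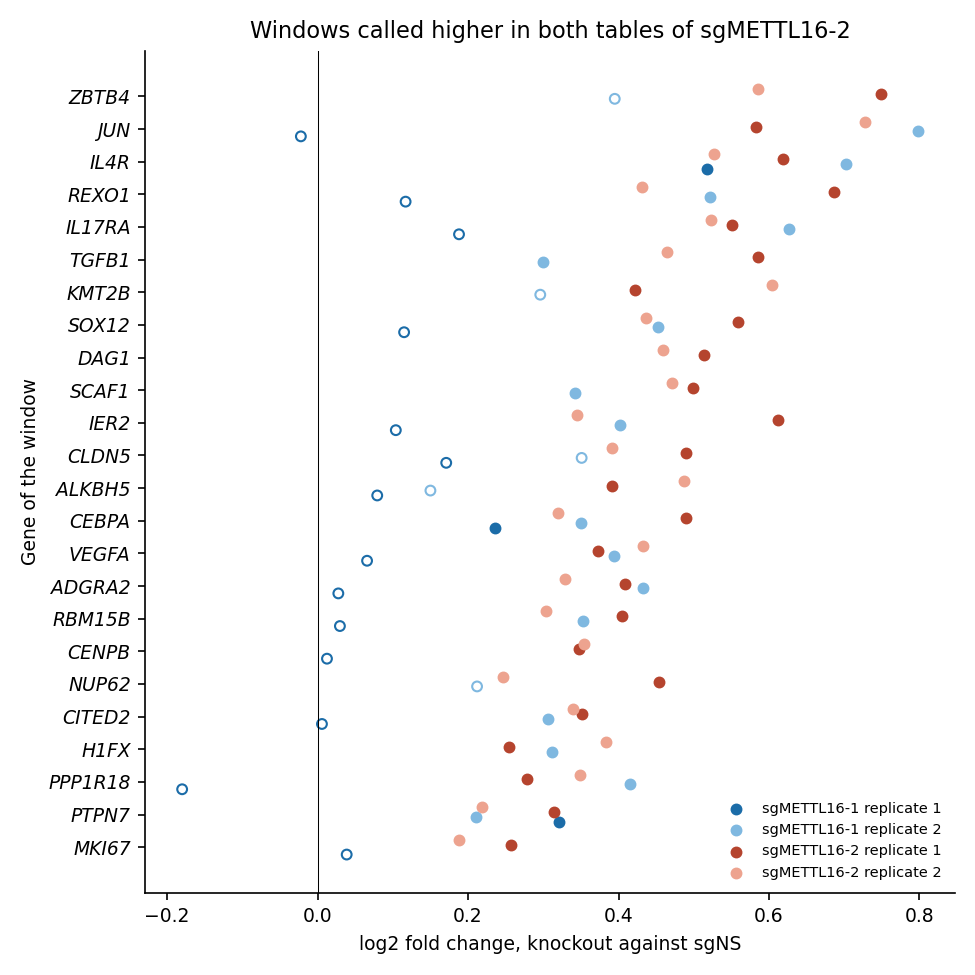
Log2 fold change (horizontal axis) in the 4 deposited tables for the named windows called higher in both tables of sgMETTL16-2, 1 gene per line, filled where called and open where not. The points of replicate 1 of sgMETTL16-1 lie furthest left for most genes that table lists, and CEBPA, IL4R and PTPN7 are filled in all 4.

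Lower calls were few and rarely repeated. LRRC8D, a subunit of the volume-regulated anion channel, was called lower in both replicate 1 tables, at -0.47 (FDR = 0.0200) with sgMETTL16-1 and -0.64 (FDR = 0.000977) with sgMETTL16-2, by the authors' deposited tables (chr1:89934373-89935923 in the former). In replicate 2 its window was 746 and 716 bases long, and its values were -0.29 and -0.11, not called, in the authors' deposited tables. NEAT1, the long non-coding RNA that scaffolds paraspeckles, was called lower in both replicate 2 tables near its 5′ end (chr11:65423547-65424626), at -0.43 (FDR = 1.26e-09) and -0.29 (FDR = 0.000214) in the authors' deposited tables. No replicate 1 window matched it. Tables of 1 replicate number may share sgNS libraries, so these pairs may not be 2 independent observations.

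In replicate 1 of sgMETTL16-1 the other lower windows were on CENPF (-0.59), RBBP6 (-0.53) and TUG1 (-0.48) in the authors' deposited table. CENPF is a kinetochore protein, RBBP6 a ubiquitin ligase and TUG1 a long non-coding RNA. In replicate 1 of sgMETTL16-2 they were on C1GALT1C1 (-1.13), EBLN3 (-0.99), RNF139 (-0.97 and -0.86, neighbouring windows), ATXN7L3B (-0.64), ZKSCAN1 (-0.64), FEM1B (-0.59) and NFYA (-0.27) in the authors' deposited table. The window of C1GALT1C1, chaperone of the enzyme that extends O-linked glycans, had the largest decrease of the 937 (FDR = 3.31e-08 in the authors' deposited table). The other table with a match, replicate 1 of sgMETTL16-1, had -0.48 (FDR = 0.100) for it in the authors' deposited table, in a window of 2 blocks.

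The gene lists, chosen with earlier results of these data known, are described by counts, to be read beside the 2.02%, 13.4%, 24.9% and 14.8% of all long windows that were called higher. Of 41 genes with a single coding exon or nearly so, 17 had a long window in some table. Their windows were called higher in 1 of 9, 4 of 14, 6 of 12 and 4 of 14 cases, with none lower, and their medians were 0.08, 0.27, 0.40 and 0.19, beside -0.00, 0.20, 0.27 and 0.22 over all long windows of the authors' deposited tables. JUNB, an AP-1 factor like JUN, was at 0.32 (FDR = 0.0145) in the authors' deposited table of replicate 2 of sgMETTL16-2, with a fold enrichment of 9.92. IRF2BPL, a transcriptional regulator, was at 0.38 and 0.15 in the replicate 2 tables of the 2 guides and KBTBD2, a ubiquitin ligase adaptor, at 0.08 and 0.02 in the replicate 1 tables, none called in the authors' deposited tables.

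Of 32 chromatin genes with very long exons, 11 had a long window: ANKRD11, ARID1A, ARID1B, ASXL1, ASXL2, EP300, KMT2B, KMT2D, MKI67, RAI1 and TET3. Windows called higher numbered 0 of 6, 2 of 10, 5 of 8 and 3 of 10, beside 2.02%, 13.4%, 24.9% and 14.8% of all long windows, with none lower. The medians were 0.03, 0.26, 0.30 and 0.24 in the authors' deposited tables. ARID1B, a subunit of the SWI/SNF remodelling complex, had a window around chr6:157206280-157207930 at 0.22 and 0.22 with sgMETTL16-1 and 0.32 (FDR = 0.0324) and 0.21 with sgMETTL16-2, by the authors' deposited tables, the third value called. ASXL1, often mutated in myeloid leukaemia, was at 0.26 (FDR = 0.336) and RAI1 at 0.49 (FDR = 0.658) in replicate 2 of sgMETTL16-1 in the authors' deposited table.

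Genes with ZNF, ZFP, ZSCAN or ZKSCAN symbols are mostly C2H2 zinc finger genes, whose finger arrays are usually encoded in 1 long last exon. This list, made by symbol, supplied 31 genes with a long window, of 422 to 432 listed per table, and among the 31 is ZFP36L2, an RNA-binding protein with CCCH fingers. The windows were called higher in 0 of 14, 1 of 16, 2 of 13 and 0 of 10 cases, beside the 2.02%, 13.4%, 24.9% and 14.8% of all long windows, and lower in 1, ZKSCAN1. The medians were -0.13, 0.16, 0.21 and 0.20 in the authors' deposited tables. ZNF469 had fold enrichments of 4.56, 10.7 and 3.14 in its 3 windows of sgMETTL16-2 and was not called in the authors' deposited tables, nor were ZNF805 (-0.56) and ZNF324B (0.10 and -0.13). Of the ZBTB genes 4 had a long window, and ZBTB4 was the 1 called. ZBTB7B was at 0.39 (FDR = 0.187), ZBTB47 at -0.12, and ZBTB14 between -0.03 and 0.19 in the authors' deposited tables.

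Of 24 m6A writers, erasers and readers, 6 had a long window: ALKBH5, METTL16, RBM15, RBM15B, YTHDF1 and YTHDF3. Windows called higher numbered 0 of 1, 1 of 4, 1 of 1 and 2 of 6, beside 2.02%, 13.4%, 24.9% and 14.8% of all long windows, with none lower. So few windows allow no reading of these shares. ALKBH5, the eraser that removes m6A, was at 0.39 (FDR = 0.0427) and 0.49 (FDR = 0.00347) with sgMETTL16-2, by the authors' deposited tables, from the 5′ end on. The former listing is 896 bases and so not a long window. The matching listings of sgMETTL16-1 were at 0.08 and 0.15, not called, in the authors' deposited tables. RBM15B, an adaptor of the METTL3-METTL14 complex with 1 exon, was at 0.03, 0.35 (FDR = 0.000224), 0.40 (FDR = 1.38e-05) and 0.30 (FDR = 0.00186) in the authors' deposited tables. RBM15, its relative, was at -0.07 and 0.60 (FDR = 0.0933), not called, in 2 neighbouring windows of the replicate 2 tables as the authors' deposited tables list them. The readers YTHDF1 (0.06 and 0.05) and YTHDF3 (-0.17 and -0.08) were long in the replicate 2 tables and not called there, by the authors' deposited tables. The matched YTHDF1 window in replicate 1 of sgMETTL16-2, a joined one and so not a member, was called higher at 0.40 in the authors' deposited table.

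METTL16 itself had 1 long window, in replicate 2 of sgMETTL16-2 (chr17:2419439-2420458). It had a log2 fold change of 0.16 (FDR = 0.650) and a fold enrichment of 2.07 in the authors' deposited table, which gives m6A relative to input and no check of the knockout. MAT2A, BCAT1 and BCAT2, published METTL16 targets, had none, and the longest single block on MAT2A was 567 bases. Of 27 myeloid transcription factors 3 had a long window, CEBPA, CEBPB and GFI1, and GFI1 was at -0.08 (FDR = 0.655) in the authors' deposited table of replicate 1 of sgMETTL16-1. From the list of 22 Polycomb genes, CBX2 (0.43 and 0.02) was long in the replicate 2 tables and not called in the authors' deposited tables. Of 16 long non-coding RNAs, NORAD (-0.40, FDR = 0.245) joined NEAT1 in the authors' deposited tables.

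Across the length threshold, single-block windows of 750 to 1000 bases were called higher in 0.752%, 4.44%, 9.43% and 5.25% of cases, and those of 1000 to 1500 bases in 1.18%, 10.3%, 19.6% and 11.4%. Just inside it in the first table were DOK2 (1002 bases) and ZNF768 (1010), at -0.08 and 0.15 in the authors' deposited table. Just outside were DAG1 and SLC26A9 (991 bases each), at 0.48 and -0.11 in the authors' deposited table, all 4 enriched and none called. In the last table AMIGO3 (1011 bases) and ADO (1014) lay inside and CHMP1B and RBM12 (991 each) outside, at 0.42, 0.17, -0.08 and -0.30 in the authors' deposited table. AMIGO3 was not enriched (IP over input FDR = 0.107 in the authors' deposited table). In the 4 tables, 9, 8, 8 and 9 long windows were at least 50% covered by a window of another gene, whose reads cannot be told apart from theirs here.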

How the data were processed

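Input and m6A IP libraries of poly(A) RNA from NOMO-1 cells were made with a stranded kit, 2 of each for 3 guides. The submitters' processing notes name STAR as the aligner and GRCh38 as the build. For the peak caller and its annotation, nothing is given in the sources used here. Per the file headers, each row of the deposited tables has a log2 fold change of the difference (its direction read here as knockout over sgNS), the log10 of the FDR and p-value of that change, the fold enrichment of IP over input (a ratio), and the log10 of the enrichment's FDR. Those deposited values were used as they stand, since the authors' tables hold no value per library. The score column holds a p-value of IP over input, as deposited by the authors. Tables were numbered 1 and 2, read here as replicate numbers. Coordinates start from 0 in the files and from 1 here.

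Python 3.11.15, pandas 2.3.3, numpy 2.4.6 and scipy 1.17.1 were used. Calls, matching and positions are defined in the report. The deposited p-values of long windows reached no further than about 0.5, as a one-sided test gives. Over all windows they reached 0.833, which a one-sided test in the observed direction does not give. The one-sided reading was still used for every window, and standard errors were implied from it by a normal approximation. Where p was about 0.5 or more, no error could be implied and the window was not called after the shift. The shift subtracts the median log2 fold change of each table's enriched windows and recomputes two-sided p-values over the whole table. Matching, implied errors and the shift were tested on simulated data. The simulated p-values were one-sided and normal by construction, so this does not check that reading of the deposited ones. Each result was recomputed under other FDRs, fold changes, enrichments, lengths, overlaps, end distances and p-values, with 1 row per gene, and without either replicate.

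The members, the 9 gene lists and the naming rules were chosen with earlier results of these data known. Named were the 10 windows with the largest mean fold change in each direction among those called in both tables of a guide, every window called in all 4 tables, the 5 longest and the 5 most enriched of those matched in all 4, up to 4 members of each list by fold enrichment, METTL16 and its targets, and 2 windows on each side of the length threshold. Others are named where a small count is spelled out or a sequence is shown, and were chosen after their values were seen. Some items are not reported here.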

Additional observations from a re-analysis of the deposited data

Results flagged for a closer look

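The window of PURB, a gene with 1 coding exon for a DNA- and RNA-binding protein, was lower than 0 in both tables of sgMETTL16-1 and higher than 0 in both tables of sgMETTL16-2. The authors' deposited tables list it at a log2 fold change of -0.102 and -0.197 with sgMETTL16-1 and 0.180 and 0.059 with sgMETTL16-2, and none was called. It was picked out because the guides point in opposite directions in each table. The difference between the guides was not tested, and 5 of the 239 windows matched in all 4 tables had such a pattern.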

How the results depend on the processing

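Orders are as in the report, and values stand against 4, 1, 9 and 1 lower and 4, 35, 58 and 36 higher windows. With an FDR of 0.01, lower counts were 0 and 5 in the replicate 1 tables, and higher counts 23 and 21 in the replicate 2 tables. Asking for a change of 1 or more in log2, either way, left 0 windows but 1 lower in replicate 1 of sgMETTL16-2. With a fold enrichment of at least 2, lower windows were 1 in replicate 1 of sgMETTL16-1 and 0 in the replicate 2 tables. A length minimum of 750 gave 7 lower in the first table, 24 and 3 lower for sgMETTL16-2, and 7, 53, 96 and 57 higher. A minimum of 1500 gave 1, 0, 1 and 0 lower and 2, 13, 21 and 14 higher. Summed blocks of at least 1000 bases gave 14, 2 and 25 lower in the first 3 tables, 82, 143 and 96 higher in the last 3, and a median fold enrichment of 2.34 in the last. The shift left 0 and 2 lower for sgMETTL16-1 and 4, 24 and 4 higher in the last 3 tables. A two-sided p alone left 1 and 5 lower in the replicate 1 tables.

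Higher calls shared by both tables of sgMETTL16-1 (3) or by all 4 tables (3) came to 1 with an FDR of 0.01, a length of 1500 or the shift, and those of sgMETTL16-1 also to 1 with a two-sided p. The 25 of sgMETTL16-2 came to 14 with an FDR of 0.01, 16 with an overlap of 0.8, 10 with a length of 1500 and 6 after the shift. Lower calls shared by both tables of sgMETTL16-2 came to 1 with a length of 750. Leaving out either replicate removes the sharing rule, so counts ranged from 1 to 4 lower and 4 to 35 higher for sgMETTL16-1, 1 to 9 and 36 to 58 for sgMETTL16-2, and 1 to 1 and 3 to 23 over all. Replicate 1 of sgMETTL16-1 decides most: without it 35 windows are higher for that guide and 23 in both guides.

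The enriched share was 76.2%, 83.4%, 79.7% and 83.4% at 750 bases and 100%, 95.8%, 95.5% and 98.0% at 1500. The median fold change in replicate 1 of sgMETTL16-2 was 0.23 at 750 and 0.32 at 1500. Near the 5′ end lay 11.2% in the first table within 500 bases, 23.1% and 28.1% in the replicate 2 tables within 2000, and 25%, 23.4% and 36.0% at a length of 1500 in the first, second and last tables. Near the 3′ end lay 28.9%, 26.2%, 25.1% and 28.5% within 500 bases, 59.4%, 50.8%, 49.4% and 54.5% within 2000, and 46.4% in the first table at a length of 1500. Longer minimums, fold limits and stricter FDRs leave fewer windows by construction, and for the other moves the cause was not tested. Of 232 recomputed values 143 stayed close. For windows called in both tables of a guide, 45 of 140 recomputations lost the call, at an FDR of 0.01, with a two-sided p or after the shift. The 140 include those without either replicate, where no call was recomputed and the choice of windows fixed the sign. The share of recomputed calls that were lost is therefore larger than 45 of 140. Only the shift could turn the sign of a mean, and it turned none. Some named windows that were not called did turn with the shift, such as KBTBD2 from 0.02 to -0.10 and CBX2 from 0.02 to -0.12 with sgMETTL16-2, from the authors' deposited tables.

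No paired analysis was possible because each deposited table is the authors' own comparison, with no value per library to pair. Depth is unknown and its limit on small changes cannot be given.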
